A study of Mus musculus with 2 samples.

Results

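The ligands of the vascular endothelial growth factor (VEGF) family were followed by their transcripts Vegfa, Vegfb, Vegfc and Pgf, 4 of the 31053 genes in the deposited matrices, chosen by symbol and described across cell types as sources of ligand. The dental pulp, the vascular and nerve-bearing soft tissue inside the tooth, was taken from C57BL/6 mice at postnatal day 12, dissociated with collagenase D, dispase and DNase, and sorted for cells negative for propidium iodide, a stain of dead cells. 10x Genomics Chromium 3' v3.1 libraries were made, 1 from mice whose endothelial cells lacked Vegfr2 (gene symbol Kdr), the main signalling receptor for VEGF-A on endothelial cells, and 1 from control mice. The Cre driver, the alleles of the control mice and the number of animals in each library are not given in the sources used here. With 1 library per genotype there is no test and no p-value: every interval is an exact 95% interval for counting error alone, and genotype cannot be told apart from library, animal or handling.

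VEGF-A signals through VEGFR2 and VEGFR1 (Flt1) and is the main driver of vessel sprouting, with a gene that is a textbook target of the hypoxia-inducible factors (HIF). VEGF-B and placental growth factor (PlGF, the product of Pgf) bind VEGFR1 but not VEGFR2, and VEGF-C binds VEGFR3 (Flt4) and, after proteolytic processing, VEGFR2, and drives growth of lymphatic vessels. Growing teeth are richly vascularised while dentine is laid down, and pulp cells are a known source of VEGF-A.

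After limits on genes, unique molecular identifiers (UMIs, each standing for 1 captured transcript), mitochondrial share and doublets, 1679 knockout and 2309 control cells remained, with 15074756 and 31457606 UMIs and medians of 8293 and 12198 UMIs per cell. Clustering, from which the 4 ligands and the genes of the pathway lists below were left out, gave 25 clusters, of which 21 received a cell class from marker genes. Of 9 classes, 6 had at least 50 cells in each library: 325 knockout and 424 control pulp mesenchyme-like cells, 163 and 264 mural-like, 141 and 405 endothelial-like, 349 and 392 glia-like, 254 and 253 macrophage or monocyte-like, and 259 and 254 dendritic-like cells. The defining markers of these 6 classes all had UMIs in both libraries. Cells with Y-linked transcripts made up 33.9% of the knockout cells that could be assigned by Xist or Y-linked genes and 16.1% of the control cells, so the libraries differ in the sex of their cells. The 2 libraries shared 3 barcodes, 2 of them among kept cells. UMIs of a gene are given as CPM, the UMIs of the gene scaled to the class total in that library, a 3' count that is compared only within a gene.

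The 4 genes lie on different chromosomes of GRCm38. Vegfa has 8 coding transcripts and spans 46016993 to 46032369 of chromosome 17 (minus strand). Vegfb spans 6982473 to 6987651 of chromosome 19 (minus strand), Vegfc 54077606 to 54187096 of chromosome 8 (plus strand) and Pgf 85166635 to 85177790 of chromosome 12 (minus strand), each with 2 coding transcripts. No other annotated gene overlaps any of them, so their UMIs are not shared with a neighbour, and the 3' counts do not separate the splice forms of Vegfa. The promoters of Vegfa, called higher in the knockout library in most cell classes below, and of Vegfb, which went both ways, are shown over the 250 bases before the RefSeq start, at chr17:46032378-46032627 and chr19:6987652-6987901 (GRCm38.p6, minus strand). Each window lies outside the span of its own gene given above, and overlap with exons of other genes was not checked. Capitals mark the GC box GGGCGG and the hypoxia response cores ACGTG and GCGTG, each searched on both strands; neighbouring GC boxes can adjoin.
Vegfa: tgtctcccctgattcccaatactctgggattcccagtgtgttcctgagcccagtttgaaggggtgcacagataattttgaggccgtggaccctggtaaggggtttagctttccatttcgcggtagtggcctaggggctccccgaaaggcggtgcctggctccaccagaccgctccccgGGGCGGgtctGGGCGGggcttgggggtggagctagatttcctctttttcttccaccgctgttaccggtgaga
Vegfb: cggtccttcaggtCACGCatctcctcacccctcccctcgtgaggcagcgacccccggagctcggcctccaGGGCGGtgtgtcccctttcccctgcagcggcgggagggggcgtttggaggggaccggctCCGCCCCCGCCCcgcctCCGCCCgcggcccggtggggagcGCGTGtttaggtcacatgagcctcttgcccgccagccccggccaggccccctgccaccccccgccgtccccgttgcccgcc
The Vegfa window held 2 GC boxes and neither hypoxia core, and the Vegfb window held 4 GC boxes and 2 GCGTG cores, 1 on each strand. The windows of Vegfc and of Pgf, which went both ways as well, are not printed. That of Vegfc held 2 GC boxes and neither core. That of Pgf, which lies inside the span of its gene given above, held 2 GC boxes and 1 GCGTG core. Of 32851 mouse promoters of the same length, 38.6% held either core and 32.7% a GC box. The bases G and C made up 59.2% of the Vegfa window and 76.4% of the Vegfb window, against a median of 52.4% over those promoters. The promoters compared were not matched for this. A match is a run of letters, not a shown binding site, and elements farther away are outside these windows.

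Over all kept cells, Vegfa was the 1 ligand of the 4 with a higher level in the knockout library. It had 74.6 CPM in the knockout library (1125 UMIs), against 28.8 CPM in the control library (906 UMIs), a knockout over control ratio of 2.59 (2.37 to 2.83). Vegfc had the lowest ratio, at 0.372 (0.301 to 0.456), with 7.30 CPM in the knockout library and 19.6 CPM in the control library. Pgf had 19.2 CPM in the knockout library and 29.2 CPM in the control library, a ratio of 0.656 (0.573 to 0.750). Vegfb differed by less than counting error, at 24.7 CPM in the knockout library and 26.4 CPM in the control library (ratio 0.934, 0.824 to 1.06). A gene was called higher or lower when it was at least 1.5-fold different with at least 20 UMIs over both libraries, and of 15508 genes with that many UMIs in all cells, 10.6% were called higher and 10.6% lower. These sums mix cell classes that the libraries hold in different proportions, endothelial-like cells above all, so the classes are taken 1 by 1 below.

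**Figure D1:**
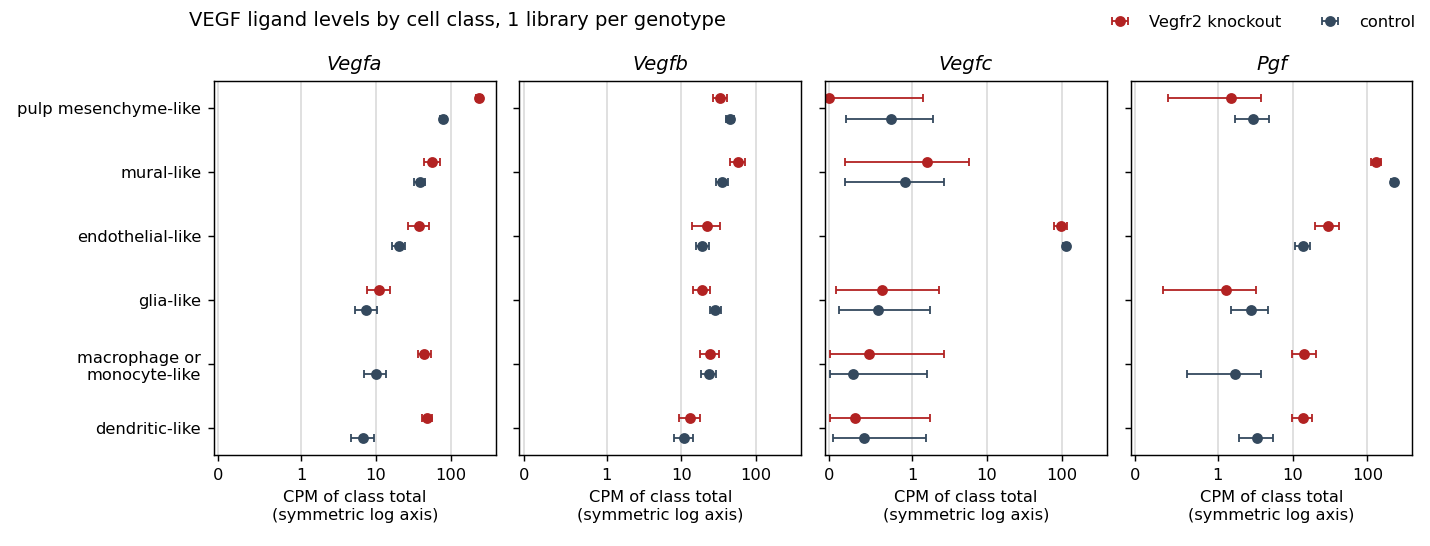
Level of each VEGF ligand by cell class, in CPM of the class total on a symmetric log axis (linear near 0), for the Vegfr2 knockout library (red, upper point) and the control library (blue, lower point), with exact 95% Poisson intervals. Of these 6 larger classes, Vegfa lies highest in pulp mesenchyme-like cells at 240 CPM in the knockout library and 78.7 CPM in the control library, Vegfc stands out in endothelial-like cells alone, and Pgf is led by mural-like cells.

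Of the 6 larger classes, Vegfa was highest in the pulp mesenchyme-like cells, the connective tissue cells of the pulp, and it was there that it reached the most UMIs in both libraries. These cells had 240 CPM in the knockout library (222 to 259, 646 UMIs) and 78.7 CPM in the control library (71.4 to 86.6, 422 UMIs), a ratio of 3.05 (2.69 to 3.46). At least 1 Vegfa UMI was found in 239 knockout cells (73.5%) and in 225 control cells (53.1%), at median depths of 7916 and 11649.5 UMIs. After every cell was thinned to 2000 UMIs, the shares were 36.3% of 303 knockout cells and 16.2% of 408 control cells, with 22 and 16 shallower cells left out. Glia-like cells, the class with the least Vegfa of the 6 over both libraries together, had thinned shares of 2.15% and 1.55%, a measure of what free RNA could add. The upper end of the distribution differed as well: 36 knockout cells (11.1%) and 9 control cells (2.12%) carried 5 or more Vegfa UMIs. The single cell with the most Vegfa UMIs held 2.63% of them in the knockout library and 1.90% in the control library, so the sums do not rest on a few cells. Of 12246 genes measured in this class, 12% were called higher and 14.1% lower.

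The make-up of the pulp mesenchyme-like class differed between the libraries, and the size of the Vegfa ratio moved with it. The class held 3 clusters: cluster 1 (led by Cldn10, Enpp2 and Irx5) with 145 knockout and 267 control cells, cluster 3 (led by Sp9 and by predicted transcripts) with 157 and 34, and cluster 18 (led by Pcp4, Smoc2 and Crabp1) with 23 and 123. Within cluster 1, which both libraries fill, Vegfa had 212 CPM in knockout cells and 112 CPM in control cells, a ratio of 1.89 (1.60 to 2.23). Cluster 3 had the highest Vegfa level of all clusters in this class, with 283 CPM in knockout cells and 175 CPM in control cells (ratio 1.62, 1.16 to 2.33). The share of thinned cells with Vegfa in cluster 3 was 43.3% of 150 knockout cells and 43.5% of 23 control cells, and in cluster 1 it was 30.8% and 19.6%. Cluster 18 had 54.6 CPM in knockout cells from 7 UMIs and 26.6 CPM in control cells from 60 UMIs (ratio 2.05, 0.792 to 4.50), and its knockout cells had a median of 1611 UMIs, against 17653 UMIs in its control cells. The Vegfa CPM was thus higher in the knockout cells of each cluster, in cluster 18 within counting error, but by less than in the class as a whole, and with clusters weighted equally the ratio was 1.75. With stricter limits on cells, which were then clustered and named anew, it was 5.02 (4.01 to 6.26). Those limits kept mitochondrial shares of no more than 5%. The medians in the class were 7.14% in knockout cells and 5.79% in control cells, so most of its cells fell outside, and the 2 values are not from the same cells. An unnamed cluster with pulp markers but cartilage genes among its leading genes had 105 CPM in 31 knockout cells and 49.9 CPM in 132 control cells (ratio 2.10, 1.42 to 3.07). Markers of mural cells summed to 859 CPM in the knockout pulp mesenchyme-like cells and 393 CPM in the control ones, and the 10 glial markers to 255 and 134 CPM. The part of these transcripts in the Vegfa difference was not tested.

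**Figure D2:**
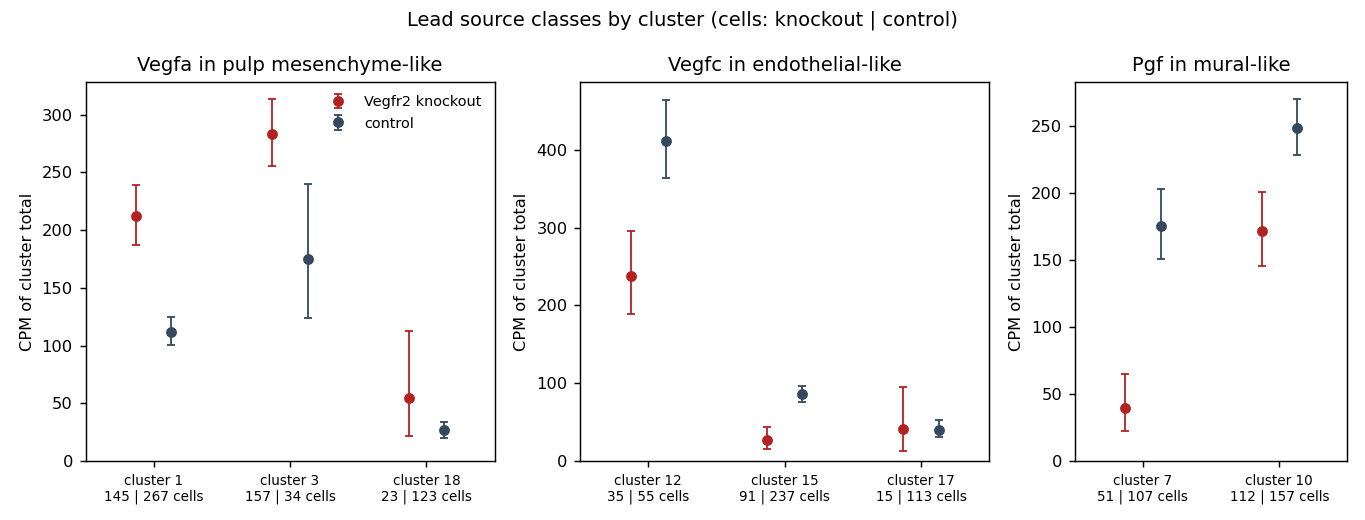
CPM of the cluster total for Vegfa in the 3 pulp mesenchyme-like clusters, Vegfc in the 3 endothelial-like clusters and Pgf in the 2 mural-like clusters, in the knockout library (red) and the control library (blue), with exact 95% Poisson intervals and the number of cells under each cluster (knockout, then control). Vegfa points lie higher in the knockout library in each pulp cluster, and both Pgf points lie lower, with the widest gap in cluster 7.

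Of the 6 larger classes, the dendritic-like and the macrophage or monocyte-like cells held the largest Vegfa ratios, from low control levels. In dendritic-like cells, which take up and present antigen, Vegfa had 49.1 CPM in the knockout library (159 UMIs in 49 cells) and 6.76 CPM in the control library (32 UMIs in 10 cells), a ratio of 7.26 (4.94 to 10.97). A single control cell held 62.5% of those 32 UMIs, and without the top cell of each library the ratio was 17.8 (9.88 to 35.2). The ratio was 44.8 (18.6 to 141) among Xist-positive cells, but 1.33 (0.789 to 2.26) among Y-positive cells, so the size of this difference, and its call, depended on which cells were counted. Control cells held 5 Vegfa UMIs in the Xist-positive part and 27 in the Y-positive part. The 1 control cell with 20 UMIs was therefore Y-positive, and the Y-positive control level rests mostly on it. The Y-positive ratio without that cell was not computed. Most knockout dendritic-like cells belonged to cluster 13 (led by Ccr7, Cd83 and Ptgs2; 159 knockout and 68 control cells) and most control ones to cluster 20 (led by Cd209a; 53 and 161 cells). Within cluster 13 Vegfa had 72.8 CPM in knockout cells and 19.3 CPM in control cells (ratio 3.78, 2.47 to 6.02). In that cluster 1 control cell held 80% of the 25 control UMIs, so its control level and ratio rest largely on 1 cell. Dendritic-like cells had 9.36% of 10147 genes called higher and 13.7% called lower.

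Macrophage or monocyte-like cells had 44.8 CPM of Vegfa in the knockout library (94 UMIs) and 9.99 CPM in the control library (35 UMIs), a ratio of 4.48 (3.01 to 6.81), where 9.78% of 10099 genes were called higher and 11.5% lower. Cluster 6, led by the monocyte genes Ly6c2 and Lyz2, held 121 of the knockout cells and 28 of the control cells of this class, and its Vegfa level was 75.0 CPM in knockout cells and 31.3 CPM in control cells (ratio 2.39, 1.29 to 4.83). The ratio in the class was 5.41 (3.41 to 8.75) among Xist-positive cells and 2.42 (0.901 to 7.56) among Y-positive cells, the second from 16 knockout and 6 control UMIs. In the small T or NK-like class, 20 Vegfa UMIs came from 32 knockout cells and 1 from 19 control cells (ratio 15.4, 2.46 to 638). The small neutrophil-like class went the other way, with 49.995 CPM in 37 knockout cells (11 UMIs) and 82.9 CPM in 36 control cells (26 UMIs), the control value lying near that of control pulp mesenchyme-like cells (ratio 0.603, 0.269 to 1.26), an interval that includes 1.

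The vessel wall itself showed smaller Vegfa differences. Endothelial-like cells, the cells that line vessels and carry VEGFR2, had 37.9 CPM in the knockout library (40 UMIs) and 20.4 CPM in the control library (107 UMIs), a ratio of 1.86 (1.26 to 2.70), where 11.9% of 10894 genes were called higher and 15.2% lower. Mural-like cells, which wrap vessels as pericytes or as smooth muscle, had 56.5 CPM in the knockout library and 38.5 CPM in the control library, a ratio of 1.47 (1.09 to 1.98) that stayed under the 1.5-fold limit but was past it in Xist-positive (1.67), Y-positive (1.78) and thinned cells (2.12). Glia-like cells had 11.1 CPM in the knockout library and 7.47 CPM in the control library (ratio 1.48, 0.909 to 2.41). The glial clusters differed: cluster 5, led by Scn7a and Gfra3, had a ratio of 3.56 (1.64 to 8.03) from 19 knockout and 12 control UMIs. Cluster 8 had a ratio of 0.913 (0.432 to 1.92) from 16 knockout and 17 control UMIs, and cluster 16 had 0 knockout and 9 control UMIs. Of the 6 larger classes, Vegfa was called higher in 4 and lower in 0. In the order of levels, pulp mesenchyme-like cells led in both libraries beyond counting error. Mural-like, dendritic-like, macrophage or monocyte-like and endothelial-like cells followed in the knockout library with intervals that overlapped from each class to the next, whereas in the control library mural-like and endothelial-like cells stood apart from each other and from the lower 3 classes, with dendritic-like cells last.

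**Figure D3:**
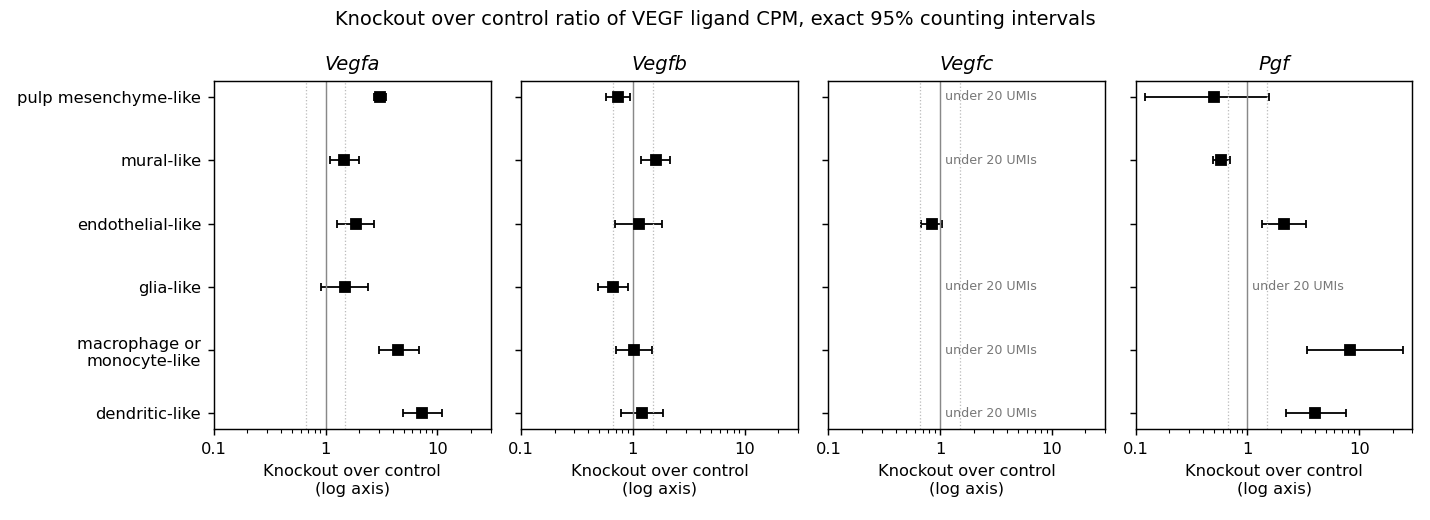
Knockout over control ratio of CPM for each ligand and class on a log axis, with exact 95% intervals for counting error. The solid line marks equal levels and the dotted lines 1.5-fold either way; classes with fewer than 20 UMIs over both libraries carry no point. Vegfa lies right of 1 in each of the 6 larger classes shown, at 3.05 in pulp mesenchyme-like cells and 7.26 in dendritic-like cells, while Pgf lies left of 1 in mural-like cells at 0.586 and right of it in the endothelial and myeloid classes.

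Vegfb had no single source. Its levels lay within 13.0 to 56.5 CPM over the 6 classes in the knockout library and within 10.8 to 44.8 CPM in the control library, with mural-like cells first in the knockout library and pulp mesenchyme-like cells first in the control library, there with an interval that overlapped that of mural-like cells. Mural-like cells had 56.5 CPM in the knockout library (72 UMIs) and 35.4 CPM in the control library (116 UMIs), a ratio of 1.60 (1.17 to 2.16) in a class with 10.9% of 10556 genes called higher and 11% lower. The call was lost among Xist-positive cells, at 1.49 (0.948 to 2.28), and in thinned cells, at 1.45 (0.699 to 2.99). Both mural clusters lay near the class value, at 1.54 (0.717 to 3.17) in pericyte-led cluster 7 and 1.59 (1.13 to 2.23) in smooth muscle-led cluster 10. The direction was opposite in glia-like cells, the Schwann-type cells of the pulp nerves, with 19.0 CPM in the knockout library and 28.5 CPM in the control library (ratio 0.665, 0.484 to 0.905). Within this class the ratio was 0.655 (0.387 to 1.09) in cluster 8, 0.969 (0.560 to 1.63) in cluster 5 and 0.979 (0.462 to 1.89) in the cycling cluster 16, which had the highest glial Vegfb level and held 13 knockout and 44 control cells. The glial call was lost among Y-positive cells, at 0.850 (0.450 to 1.62). In this class 10.1% of 11353 genes were called higher and 10.8% lower. Pulp mesenchyme-like cells had 33.1 CPM in the knockout library and 44.8 CPM in the control library (ratio 0.739, 0.573 to 0.946), short of 1.5-fold. That value turned with the cells taken: it was 0.600 (0.438 to 0.811) among Xist-positive cells and 2.69 (1.27 to 6.09) among Y-positive cells, the second from 24 knockout and 11 control UMIs. The clusters of the class differed too, with ratios of 1.21 in cluster 1, 0.517 in cluster 3 and 1.28 in cluster 18, each with an interval that included 1. Macrophage or monocyte-like cells (23.8 CPM in the knockout library and 23.1 CPM in the control library), endothelial-like cells (21.8 and 19.0 CPM) and dendritic-like cells (13.0 and 10.8 CPM) had intervals of the ratio that included 1.

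Vegfc was an endothelial transcript in both libraries. Endothelial-like cells held 92.7% (86.2 to 96.8) of its UMIs in the knockout library and 97.1% (95.4 to 98.3) in the control library, and no other of the 6 larger classes had more than 4 Vegfc UMIs in a library. There were 0 UMIs in 325 knockout pulp mesenchyme-like cells, where the exact interval reaches 1.37 CPM. In endothelial-like cells Vegfc had 96.7 CPM in the knockout library (102 UMIs) and 114 CPM in the control library (599 UMIs), a ratio of 0.849 (0.681 to 1.05). The class level therefore did not differ beyond counting error, and the 0.372 over all cells stands beside an endothelial share of 141 in 1679 knockout cells and 405 in 2309 control cells.

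Within the endothelium, Vegfc was concentrated in cluster 12, led by the arterial genes Gja5 and Sox17, and the levels within clusters differed more than the class sum. Cluster 12 had 238 CPM in 35 knockout cells (81 UMIs) and 412 CPM in 55 control cells (266 UMIs), a ratio of 0.578 (0.445 to 0.744). Cluster 15, led by Vwf and Selp, genes typical of venous endothelium, had 27.1 CPM in 91 knockout cells (16 UMIs) and 86.0 CPM in 237 control cells (277 UMIs), a ratio of 0.315 (0.177 to 0.520). Cluster 17, led by Esm1 and Kdr, had 40.6 CPM in 15 knockout cells (5 UMIs) and 40.3 CPM in 113 control cells (56 UMIs), a ratio of 1.01 with a wide interval (0.314 to 2.49). Vegfc was thus lower in the knockout library in clusters 12 and 15, while the class ratio was closer to 1. Cluster 12, which has the highest Vegfc level, held 24.8% of the knockout endothelial-like cells and 13.6% of the control ones. With clusters weighted equally the class ratio was 0.533. It was 1.03 (0.782 to 1.33) among Xist-positive cells and 0.561 (0.333 to 0.904) among Y-positive cells, and 1.06 (0.653 to 1.66) in thinned cells. The share of thinned cells with Vegfc was 17.6% in the knockout library and 16.9% in the control library, against 0 of 238 knockout and 0 of 246 control macrophage or monocyte-like cells, with upper limits of 1.54% and 1.49%. Thinning left out 33 of 141 knockout and 32 of 405 control endothelial-like cells, 30 and 26 of them from cluster 15. By cluster, the thinned shares were 43.8% in knockout and 65.3% in control cells of cluster 12, and 4.92% and 13.3% in cluster 15. Cluster 17 went the other way, at 13.3% of 15 knockout and 2.65% of 113 control cells.

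Pgf was the ligand of the mural-like cells. These cells had 132 CPM in the knockout library (168 UMIs) and 225 CPM in the control library (738 UMIs), a ratio of 0.586 (0.493 to 0.694), and Pgf was found in 22.0% of thinned knockout cells and 34.7% of thinned control cells. Glia-like cells, which had few Pgf UMIs, had thinned shares of 0.308% and 0.773%. The lower level stood in both mural clusters. Cluster 7, with the pericyte genes Higd1b, Kcnj8 and Abcc9 among its leading genes, had 39.4 CPM in 51 knockout cells (15 UMIs) and 175 CPM in 107 control cells (182 UMIs), a ratio of 0.225 (0.123 to 0.381). Cluster 10, led by the smooth muscle genes Myh11 and Acta2, had 171 CPM in 112 knockout cells (153 UMIs) and 248 CPM in 157 control cells (556 UMIs), a ratio of 0.690 (0.573 to 0.827). The intervals of these 2 ratios do not overlap. The mural ratio was 0.521 among Xist-positive cells and 0.541 among Y-positive cells.

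Among the other larger classes Pgf was at lower levels, and it was called higher in the knockout library in endothelial-like, dendritic-like and macrophage or monocyte-like cells. Endothelial-like cells had 29.4 CPM in the knockout library (31 UMIs in 11 cells) and 13.7 CPM in the control library (72 UMIs in 26 cells), a ratio of 2.15 (1.36 to 3.31). All but 1 of those knockout UMIs lay in the Vwf- and Selp-led cluster 15, where the ratio was 2.34 (1.47 to 3.63), and 1 cell held 32.3% of the knockout UMIs of the class. Without the top cell of each library the class ratio was 1.79 (1.03 to 2.98), and it was 5.90 (2.09 to 18.9) among Y-positive cells, from 13 knockout and 6 control UMIs. Markers of mural cells, the main Pgf source, summed to 622 CPM in the knockout endothelial-like cells and 323 CPM in the control ones, and their part in the Pgf difference was not tested. Dendritic-like cells had 13.6 CPM in the knockout library (44 UMIs) and 3.38 CPM in the control library (16 UMIs), a ratio of 4.02 (2.22 to 7.63), with 38 of the knockout UMIs in the Ccr7-led cluster 13. Macrophage or monocyte-like cells had 14.3 CPM in the knockout library and 1.71 CPM in the control library, a ratio of 8.35 (3.42 to 24.5), but it came from 30 UMIs in 5 knockout cells and 6 UMIs in 5 control cells. One knockout cell held 53.3% of its Pgf, 27 of the 30 UMIs lay in the proliferating cluster 21, and without the top cells the ratio was 5.86 (1.84 to 24.5). Pulp mesenchyme-like cells had 4 knockout and 16 control UMIs, which just reached the count limit and gave a ratio of 0.498 with an interval that included 1. Glia-like cells had 4 knockout and 14 control UMIs, neutrophil-like cells 0 and 5, and the unnamed clusters 6 and 52 (ratio 0.493, 0.173 to 1.15). Most of the last lay in unnamed cluster 11, with mural markers and cycling genes, which had 130 CPM in 2 knockout cells (4 UMIs) and 221 CPM in 12 control cells (47 UMIs).

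**Figure D4:**
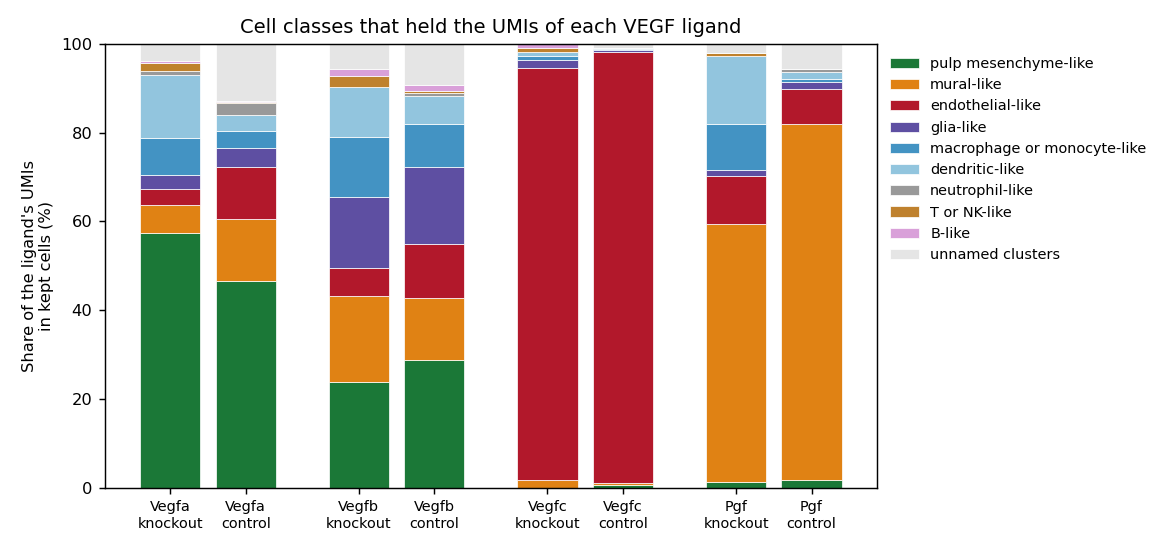
Share of each ligand's UMIs in kept cells held by each cell class, as stacked bars that sum to 100%, with the knockout library left of the control library for each ligand. Endothelial-like cells (dark red) fill the Vegfc bars in both libraries, mural-like cells (orange) hold 58.1% of Pgf in the knockout library and 80.3% in the control library, and pulp mesenchyme-like cells (green) hold the largest part of Vegfa.

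Seen as sources, the libraries shared their leading class for Vegfa, Vegfb, Vegfc and Pgf, and the myeloid cells took a larger part in the knockout library for Vegfa and Pgf. Pulp mesenchyme-like cells held 57.4% (54.5 to 60.3) of the Vegfa UMIs in the knockout library and 46.6% (43.3 to 49.9) in the control library. Dendritic-like cells held 14.1% of Vegfa in the knockout library and 3.53% in the control library, and mural-like cells held 6.40% and 13.9%. Of the Pgf UMIs, mural-like cells held 58.1% in the knockout library and 80.3% in the control library, while dendritic-like cells held 15.2% and 1.74%. Pulp mesenchyme-like cells held the largest share of Vegfb, 23.9% in the knockout library and 28.9% in the control library, although its level in the knockout library was highest in mural-like cells. These shares depend on how many cells of each class were captured as well as on the level in each cell.

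The receptors for these ligands were measured in the same cells. In endothelial-like cells, 0 of 5 measured receptors and co-receptors were called higher and 2 lower in the knockout library. Over all genes measured in this class, 11.9% were called higher and 15.2% lower. Kdr, the targeted gene, had 650 CPM in knockout cells and 1054 CPM in control cells (ratio 0.616, 0.568 to 0.667), and a 3' count of the transcript outside a deleted stretch checks nothing about the deletion. Flt4, the receptor for VEGF-C, had 31.3 CPM in knockout cells and 65.8 CPM in control cells (ratio 0.475, 0.322 to 0.680). Flt1, which binds VEGF-A, VEGF-B and PlGF, had a ratio of 0.780 (0.736 to 0.826), the co-receptor Nrp1 0.738 and Nrp2 1.25, all short of 1.5-fold. Cluster 17, rich in Kdr and Flt1, held 15 of 141 knockout and 113 of 405 control endothelial-like cells. In mural-like cells Flt1 had 23 knockout and 25 control UMIs, a ratio of 2.37 (1.28 to 4.35). In the pulp mesenchyme-like cells, which had low receptor levels, Nrp1 was called higher at 1.54 (1.07 to 2.20), and Nrp2 (0.450), Kdr (0.592) and Flt1 (0.272, from 3 knockout and 22 control UMIs) were called lower. Of the 58 knockout UMIs of Nrp1 there, 1 cell held 20.7%, and the ratio without that cell was not computed. Over all genes measured in these pulp cells, 12% were called higher and 14.1% lower.

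Of the 5 genes for the processing of VEGF-C, the scaffold gene Ccbe1 and the protease gene Adamts3, which together activate pro-VEGF-C, were found mainly in pulp mesenchyme-like cells, apart from the endothelial cells that held Vegfc. Adamts3 had 52.4 CPM in knockout pulp mesenchyme-like cells and 42.3 CPM in control ones (ratio 1.24, 0.996 to 1.53), and Ccbe1 had 8.55 and 12.1 CPM (ratio 0.705, 0.418 to 1.15). Neither passed 1.5-fold. Of the proprotein convertases, which cut the precursor, Furin was called higher in these cells (ratio 1.67, 1.47 to 1.90), and Pcsk5 (0.520, 0.410 to 0.654) and Pcsk7 (0.608, 0.387 to 0.930) were called lower. In endothelial-like cells 3 of the 5 were measured, and Pcsk5 alone passed the limit, at 1.71 (1.27 to 2.29). Over all genes, 12% were called higher and 14.1% lower in pulp mesenchyme-like cells, and 11.9% and 15.2% in endothelial-like cells.

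The genes that share HIF control with Vegfa were higher beside it in the pulp mesenchyme-like cells. Of 19 measured HIF target genes, 16 were called higher and 0 lower, with a median log2 ratio of 1.20, against -0.06 over all genes in the class. Of all genes measured in the class, 12% were called higher and 14.1% lower. Ankrd37, an ankyrin repeat gene induced in hypoxia, had the largest ratio at 6.36 (4.77 to 8.58). The glycolytic genes Aldoa (2.85), Ldha (2.72), Eno1 (2.45) and Hk2 (2.32), the prolyl hydroxylase subunit gene P4ha1 (2.46), the mitophagy gene Bnip3 (2.40), the vasodilator peptide gene Adm (2.33), the stress gene Ndrg1 (2.64) and the mTOR inhibitor gene Ddit4 (2.30) had intervals that excluded 1. Lower down were Pfkfb3 (2.09), Mif (1.71), P4ha2 (1.62), Pgk1 (1.56), Pdk1 (1.55) and Kdm3a (1.54), while Higd1a (1.497) stayed just under the limit and the glucose transporter gene Slc2a1 (1.32, 0.833 to 2.05) and Pfkfb4 (0.854, 0.523 to 1.36) had intervals that included 1. In cluster 1 alone, with 9.34% of 10834 genes called higher and 11.2% lower, 14 of 19 were called higher and 0 lower (median log2 ratio 0.91). Cluster 3, with 19.7% of 8382 genes called higher and 16.4% lower, had 11 higher and 1 lower of 17 (median 0.84).

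Among the oxygen-sensing genes themselves the differences in pulp mesenchyme-like cells were fewer, with 3 of 8 measured called higher and 0 lower and a median log2 ratio of 0.13. Hif3a, an inhibitory HIF subunit, had a ratio of 3.75 (2.02 to 7.20), the oxygen sensor Egln1 1.56 (1.32 to 1.85) and the ubiquitin ligase subunit Vhl 1.52. Egln3, an oxygen sensor that is also a HIF target, was called higher in endothelial-like cells (3.80, 1.85 to 7.64) and in mural-like cells (12.4, 4.62 to 41.5, from 24 knockout and 5 control UMIs), and Hif1a in endothelial-like cells (1.71, 1.51 to 1.93). The HIF targets were also called higher more often than lower in each of the other larger classes. Endothelial-like cells had 9 higher and 0 lower of 17 (median log2 ratio 0.63), macrophage or monocyte-like cells 11 and 0 of 18 (0.71), and dendritic-like cells 9 and 1 of 19 (0.48). Mural-like cells had 9 higher and 0 lower of 17 (0.59) and glia-like cells 5 and 0 of 17 (0.06). Over all genes, the shares called higher in the 6 larger classes lay from 9.36% (dendritic-like) to 12% (pulp mesenchyme-like). Those called lower lay from 10.8% (glia-like) to 15.2% (endothelial-like). The medians ran from 0.06 in glia-like cells to 1.20 in pulp mesenchyme-like cells, and their order was not that of the Vegfa ratios. Dendritic-like cells, with the largest Vegfa ratio of the 6 classes (7.26), had a median of 0.48. Mural-like cells, with a Vegfa ratio of 1.47, had one of 0.59. A link between these medians and Vegfa was not tested.

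**Figure D5:**
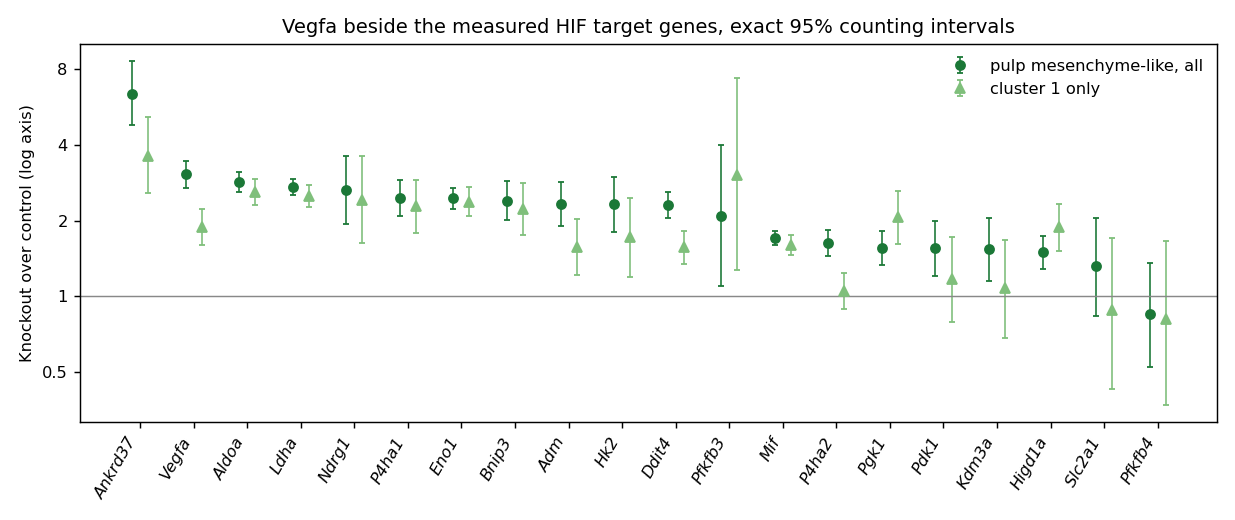
Knockout over control ratio of Vegfa and the 19 measured HIF target genes in pulp mesenchyme-like cells on a log axis, for the whole class (dark circles) and for cluster 1 alone (light triangles), with exact 95% counting intervals. Ankrd37 lies highest at 6.36 in the class, Vegfa is at 3.05 in the class and 1.89 in cluster 1, and Slc2a1 and Pfkfb4 lie at the right end with intervals across 1.

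Genes induced by tissue dissociation differed in the same direction in several classes. Of 14 such genes, 10 were called higher and 0 lower in knockout pulp mesenchyme-like cells (median log2 ratio 0.71), 14 and 0 in mural-like cells (1.28), 8 and 0 in endothelial-like cells (0.90) and 8 and 0 in glia-like cells (0.86). Macrophage or monocyte-like cells had 4 higher and 1 lower, and dendritic-like cells 1 higher and 2 lower. Among all genes measured, 9.78% were called higher and 11.5% lower in macrophage or monocyte-like cells, and 9.36% and 13.7% in dendritic-like cells. The counts in dendritic-like cells were thus near the shares among all genes. In the other larger classes, the shares called higher lay from 10.1% (glia-like) to 12% (pulp mesenchyme-like). Those called lower lay from 10.8% (glia-like) to 15.2% (endothelial-like). Within the larger pulp clusters the direction was not that of the class: 0 were called higher and 2 lower in cluster 1 (median -0.21), and 0 higher and 4 lower in cluster 3 (-0.25). Over all genes, 9.34% were called higher and 11.2% lower in cluster 1, and 19.7% and 16.4% in cluster 3. The part of dissociation stress in the ligand differences was not tested.

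Other angiogenic ligands did not follow Vegfa in the pulp mesenchyme-like cells. Of 10 measured, 0 were called higher and 4 lower: the insulin-like growth factor genes Igf1 (0.571, 0.489 to 0.666) and Igf2 (0.482, 0.349 to 0.655), the hepatocyte growth factor gene Hgf (0.510, 0.300 to 0.832), and Pdgfc (0.393, 0.205 to 0.703), which encodes a ligand of the platelet-derived growth factor receptors. Over all genes measured in these cells, 12% were called higher and 14.1% lower. In endothelial-like cells Pdgfd was called higher (1.88, 1.36 to 2.55) and Igf1 lower (0.266, 0.175 to 0.389) among 10 measured. These counts were near the shares over all genes in that class, 11.9% higher and 15.2% lower. In mural-like cells, where Pgf was lower, Igf1 was lower too, with 225 CPM in the knockout library and 642 CPM in the control library (ratio 0.350, 0.308 to 0.396), whereas Angpt2 (1.52) and Fgf1 (1.94) were called higher. Vegfd, the remaining ligand of the family in the mouse, had 12 UMIs in all knockout cells and 46 in all control cells.

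Across 43 profiles of a cluster in a library (21 knockout and 22 control, each of at least 20 cells), the genes whose log2(CPM + 1) was most like that of a ligand differed for each. Profiles share libraries and cell types, so these Pearson correlations over 11800 genes are descriptions with no p. Vegfa was closest to Chka (r = 0.77), a choline kinase gene, the amino acid transporter gene Slc38a2 (0.76), Socs1 (0.75), Hlf (0.74) and the prostaglandin synthase gene Ptges (0.74). Vegfc was closest to Hoxd8 (0.94), Stmn2, Zfp979, Sox7 and Ptprr (each 0.91 or above), and Vegfb to Zcchc11 (0.81), Zbtb5, Dzip3, Pstk and Sfmbt1. Pgf was closest to Ndufa4l2 (0.73), Lmod1, Bdnf, Mustn1 and Ccdc3, among them genes of the smooth muscle-led cluster 10. Among the ligands themselves the highest correlation was that of Vegfa with Pgf, at 0.36, and the other pairs lay from -0.14 to 0.20.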

How the data were processed

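The deposited values are raw UMI counts per gene and barcode in filtered matrices, 2563 knockout and 3487 control barcodes with 17277162 and 35918862 UMIs. Per the file headers they were written by Cell Ranger 6.0.1 (knockout) and 5.0.0 (control); the submitters' processing notes name 6.0.1 and mm10. Barcodes needed 500 genes, 1000 UMIs and a mitochondrial share of no more than 10% (1683 knockout and 2329 control passed). Scrublet in scanpy 1.11.5 removed 4 and 20 doublets (24 of 4012, 0.598%), so undetected doublets remain. Cells of both libraries were clustered together without integration (2000 variable genes, 30 components, 15 neighbours, Leiden resolution 1; Python 3.11.15, numpy 2.4.6, scipy 1.17.1, igraph 0.11.9). A cluster was named from its markers if 3 or more were each detected in 10% of its cells, and stayed unnamed where its 10 leading genes held more markers of another class. UMIs were summed per class and library, with exact Poisson, conditional Poisson and Clopper-Pearson 95% intervals, which cover counting error only. A fold limit of 1.5 needed at least 20 UMIs. Named genes were the ligands, members of the pathway lists past 1.5-fold with an interval that excludes 1 in pulp mesenchyme-like or endothelial-like cells, and the 5 genes most like each ligand; other list members are named as examples, chosen after their values were seen. The ligands and lists were chosen with earlier results of these data known. The ratio was tested on simulated Poisson sums without variation between cells or libraries. That test covers counting error alone. Sequences are from RefSeq tables of GRCm38.p6, in which all 4 ligands matched, and positions from GENCODE.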

Additional observations from a re-analysis of the deposited data

Results flagged for a closer look

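Ligands whose ratios pointed in opposite directions in different cell classes, each with an interval that excluded 1, were Vegfb and Pgf. Vegfb was higher in knockout mural-like cells at 1.60 and lower in knockout glia-like cells at 0.665 and pulp mesenchyme-like cells at 0.739, the last being 2.69 (1.27 to 6.09) among Y-positive cells. Pgf was higher in knockout dendritic-like cells at 4.02, endothelial-like cells at 2.15 and macrophage or monocyte-like cells at 8.35, and lower in mural-like cells at 0.586. With 1 library per genotype the difference between classes was not tested.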

How the results depend on the processing

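Of the 8 ratios over all cells and in leading classes, those that were called did not change direction. Vegfb over all cells and Vegfc in endothelial-like cells, whose intervals included 1, had alternatives on either side of 1. The mural Vegfb and Pgf ratios kept their values within counting error under all 12 alternatives, from 1.45 to 1.73 and from 0.498 to 0.621. The pulp mesenchyme Vegfa ratio of 3.05 was 5.02 with stricter cell limits, 2.54 in thinned cells and 1.75 with clusters weighted equally, an alternative added after seeing the data. The endothelial Vegfc ratio of 0.849 was 1.06 in thinned cells, 0.561 in Y-positive cells and 0.533 with clusters weighted equally. Over all cells, the Xist-positive and Y-positive ratios were 3.18 and 2.06 for Vegfa, 0.817 and 1.36 for Vegfb, 0.472 and 0.222 for Vegfc, and 0.522 and 0.921 for Pgf; Vegfa was 2.36 with each cell counted equally and Vegfc 0.506 with stricter limits. The cause was not tested. Apart from these, in pulp mesenchyme-like cells the median log2 ratio of other angiogenic ligands was -0.25 with at least 20 UMIs and -0.0032 with at least 5. No paired analysis was possible because there is 1 library per genotype. Depth limits Vegfc outside the endothelium and Pgf outside the mural cells.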
